A study of Mus musculus with 4 samples.

Results

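The 10 genes described here encode fibroblast growth factors (FGFs) of dermis, hair follicle and wound, and the receptors that read them. They were taken as a fixed list of 7 ligand genes (Fgf1, Fgf2, Fgf5, Fgf7, Fgf10, Fgf18 and Fgf22) and 3 receptor genes (Fgfr1, Fgfr2 and Fgfr3) out of 39179 genes in each count file. All 10 symbols were matched to Ensembl identifiers through GENCODE vM21, and all 10 passed the filter on low counts, Fgf2 only through its WT libraries. RNA was sequenced from skin of mice on the C57BL/6 background in 4 libraries. The first group held 2 libraries of wild-type (WT) skin, and the second held 2 libraries of lesional skin from mice lacking Itch (Itch-/-, labelled Itch KO). No treatment, age or body site is given for either group, inflammation is the labelled phenotype of both, and the Itch allele is not named. Whether the 2 libraries of a genotype come from different mice is not stated, and each p-value therefore measures the spread between these libraries, which may be technical.

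FGFs are secreted proteins that bind receptor tyrosine kinases together with heparan sulfate and signal mainly through Ras and the MAP kinases. In skin they carry messages between mesenchyme and epithelium. Fgf7 and Fgf10 are made by dermal cells and act on the epithelial splice form of Fgfr2, Fgf22 belongs to the same subfamily, Fgf5 ends the growth phase of the hair follicle, and Fgf18 is known as a signal of the resting follicle. Fgf1 and Fgf2 lack a classical secretion signal and are released by damaged or stressed cells. Counts per gene do not separate the epithelial and mesenchymal splice forms of the receptors.

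The stretches just before the starts of Fgf7 and Fgf18 are shown because, among the ligands, these 2 genes had the lowest p-values and opposite directions. Each line gives 250 bases upstream of the RefSeq start on GRCm38.p6, read 5′ to 3′ on the strand of the gene, with the GC box letters GGGCGG or their reverse complement in capitals. The first lies at chr2:126034408-126034657 on the plus strand and the second at chr11:33147401-33147650 on the minus strand.
Fgf7: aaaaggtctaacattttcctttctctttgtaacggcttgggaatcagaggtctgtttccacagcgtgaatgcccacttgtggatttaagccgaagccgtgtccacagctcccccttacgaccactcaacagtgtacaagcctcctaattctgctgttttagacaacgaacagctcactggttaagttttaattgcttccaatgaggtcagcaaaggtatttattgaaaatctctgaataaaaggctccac
Fgf18: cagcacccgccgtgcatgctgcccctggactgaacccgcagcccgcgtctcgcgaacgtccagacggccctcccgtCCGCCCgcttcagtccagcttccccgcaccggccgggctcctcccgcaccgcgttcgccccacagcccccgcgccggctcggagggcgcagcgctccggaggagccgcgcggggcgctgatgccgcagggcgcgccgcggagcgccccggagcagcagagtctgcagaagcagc

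The window of Fgf7 was 43.6% G and C and that of Fgf18 was 77.2%. The search on both strands covered the AP-1 letters TGANTCA, the TATA box letters TATAAA and the GC box, and the 3 motifs do not overlap in their letters. The Fgf7 window held no match to any of them and the Fgf18 window held 1 match, to the GC box. Windows were given for 8 of the 10 genes, and no AP-1 or TATA match was found in any of their 9 windows. A GC box match was found in 7 of the 9 windows, all but those of Fgf7 and Fgfr2. The windows of Fgf2, Fgf10 and Fgfr2 and 1 window of Fgfr3 lie within the annotated gene. The Fgf22 window and the other Fgfr3 window overlap the annotated gene start. For Fgfr2 alone, the bases after the RefSeq start were not found in a GENCODE vM21 transcript. Among all 32851 windows of the same length, 6.75% held an AP-1 match, 12.4% a TATA match and 32.7% a GC box match. These are matches of letters, not shown binding sites.

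Reads assigned to genes numbered 15144957 to 16008351 per library. Levels are given as CPM, read counts relative to a library size that TMM corrected for composition. Where 2 values are joined by "and", they are replicates 1 and 2 in that order. Limits for a gene without reads lay between 0.187 and 0.198 CPM before the TMM correction, at 3 counts per library and for counting error only. Itch measured 96.7 and 103 CPM in WT skin and 11.7 CPM in each knockout library, so every library lay on its labelled side. Xist, the transcript of the inactive X chromosome, measured 1055 and 631 CPM in WT skin, versus 0.947 and 0.892 CPM in Itch KO skin, so genotype and sex cannot be told apart in any comparison here. WT replicate 1 stood apart from the other libraries: its summed level of 20 skeletal muscle genes was 25470 CPM against 1690 to 3898 CPM elsewhere, and its summed level of 14 hair shaft genes was 18.2 CPM against 1711 to 3308 CPM elsewhere. In bulk skin, fewer cells of a type and less RNA per cell cannot be told apart.

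In Itch KO skin the Fgf7 level was about 2.5 times that of WT skin, while Fgf18 and the receptor Fgfr2 were lower, and Fgf10 was nearly level. None of the 10 genes passed adjusted p under 0.05 in edgeR's quasi-likelihood test with Benjamini-Hochberg adjustment over all genes, where 0.00601% of 16651 tested genes passed. Itch itself, 8.53-fold lower in the knockouts, had adjusted p = 0.0509 in edgeR and did not pass either. The only gene that passed lies on the Y chromosome. A gene that did not pass may therefore still differ. At an unadjusted p under 0.05, 1 of the 10 was higher in the knockouts (Fgf7), against 12.0% of all tested genes, and 2 were lower (Fgf18 and Fgfr2), against 10.9%. DESeq2 called the same 3 genes in the same directions, 1 higher against a background of 7.99% of the genes with an adjusted p and 2 lower against 6.28%. limma-voom called 0 of the 10, with 2 at an unadjusted p under 0.05, where it called 0 of 16651 tested genes and 3566 had an unadjusted p under 0.05. The groups did not overlap, with the knockouts higher, for 2 of the 10 genes (Fgf7 and Fgfr1), against 31.2% of all tested genes, and with the knockouts lower for 5 (Fgf1, Fgf2, Fgf18, Fgfr2 and Fgfr3), against 30.0%. Fgf2 passed the filter on low counts only through the WT libraries, so its place among the 5 was set by the filter. The median log2 fold change of the 10 genes was -0.38, beside 0.01 over all tested genes. These shares over 10 genes are too coarse to set the list apart from the background.

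**Figure D1:**
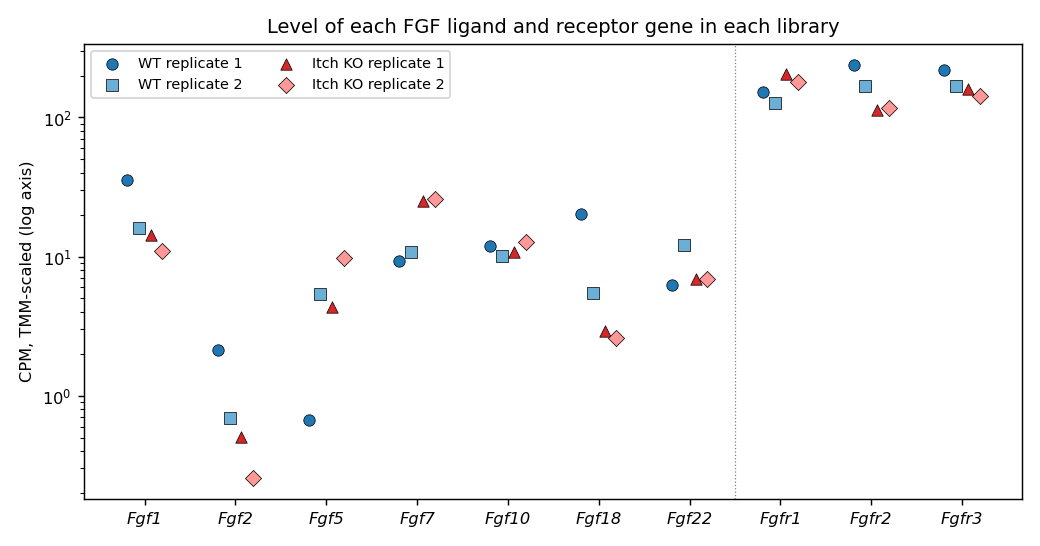
Level of each ligand gene (left of the dotted line) and receptor gene (right) in CPM scaled by TMM, on a log axis, with 1 point per library. The 3 receptor genes sit between 114 and 240 CPM, above every ligand gene, and the points of Fgf7 form a WT pair and a knockout pair that lie apart.

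Fgf7, keratinocyte growth factor, was the ligand with the clearest separation between the groups. The gene (ENSMUSG00000027208, GRCm38 chr2:126034658-126091185, plus strand) collected 140 and 170 counts in WT skin, versus 396 and 406 counts in Itch KO skin. In CPM, WT skin had 9.33 and 10.7 (mean 10.03 ± 0.99, SD, n = 2) and Itch KO skin had 25.0 and 25.9 (mean 25.4 ± 0.61, SD, n = 2). Libraries of a group were close to each other and the groups did not overlap. The log2 fold change was 1.34 (SE 0.22, 95% interval 0.76 to 1.93), or 2.53-fold, with adjusted p = 0.0819 in edgeR and adjusted p = 0.000162 in DESeq2. With any 1 library left out, the log2 fold change stayed between 1.24 and 1.45. The gene lies 29042324 bases from Itch on the same chromosome, and whether sequence linked to the knockout allele bears on its level was not tested.

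Of 15 genes of dermal fibroblasts, which are among the known sources of Fgf7, 11 had a larger fold change than Fgf7 and 4 a smaller one. In 14 of the 15 genes on their list the groups were separated with the knockouts higher, and no gene was at 0. The summed level of the list was 2673 and 3894 CPM in WT skin, versus 15680 and 13980 CPM in Itch KO skin. Per 1000 CPM of that list, Fgf7 had 3.49 and 2.76 CPM in WT skin, versus 1.60 and 1.85 CPM in Itch KO skin. Both knockouts then lay below both WT libraries, but the collagens Col1a1, Col1a2 and Col3a1 made up 11050 and 10370 CPM of the knockout sums. Per 1000 CPM of the other 12 genes, a subset chosen after the values were seen, Fgf7 had 5.35 and 6.72 CPM in WT skin, versus 5.40 and 7.17 CPM in Itch KO skin, and the groups overlapped. Of the dermal papilla list, 3 of 10 genes lay above and 2 below, and the summed level was 79.2 and 97.7 CPM against 124 and 162 CPM. Crabp1, the highest gene of that list, had 27.5 and 28.2 CPM in WT skin, versus 80.2 and 94.4 CPM in Itch KO skin. The summed level and ratios to it therefore depend largely on this gene. Scaled to 1000 CPM of dermal papilla genes, Fgf7 had 118 and 109.8 CPM in WT skin, versus 202 and 160 CPM in Itch KO skin. The epidermal gamma delta T cell list, a further known source, had 0 of 7 genes above, 3 below and none at 0, with sums of 91.1 and 43.2 CPM in WT skin, versus 53.4 and 41.5 CPM in Itch KO skin. What part cell makeup has in the Fgf7 difference was not tested.

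Fgf10 is the closest relative of Fgf7 in skin, and its level was similar in all libraries. It had 11.9 and 10.04 CPM in WT skin, versus 10.8 and 12.7 CPM in Itch KO skin. The groups overlapped. The log2 fold change of 0.10 (SE 0.26) had a 95% interval of -0.60 to 0.80 and adjusted p = 0.845 in edgeR, so changes within that interval were not excluded at this replication. The difference between the fold changes of Fgf7 and Fgf10 was not tested. Scaled to 1000 CPM of the fibroblast list, Fgf10 had 4.46 and 2.58 CPM in WT skin, versus 0.689 and 0.907 CPM in Itch KO skin. Without the 3 collagens, a subset chosen after the values were seen, these were 6.84 and 6.28 CPM against 2.33 and 3.51 CPM, in the same direction.

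Fgf22, the third of this subfamily, is made in the inner root sheath of the hair follicle. The gene had 6.20 and 12.1 CPM in WT skin, versus 6.95 and 6.88 CPM in Itch KO skin. WT replicate 2 was high and the other 3 libraries were close together, so the groups overlapped (log2 fold change -0.40, SE 0.42, adjusted p = 0.588 in edgeR). The direction rested on WT replicate 2: without it the log2 fold change was 0.16, and without WT replicate 1 it was -0.81. The inner root sheath list, with 1 of 10 genes above, 1 below and none at 0, summed to 373 and 8996 CPM in WT skin, versus 6386 and 9701 CPM in Itch KO skin. Per 1000 CPM of inner root sheath genes, Fgf22 had 16.6 and 1.34 CPM in WT skin, versus 1.09 and 0.709 CPM in Itch KO skin. The part of inner root sheath content in the Fgf22 level was not tested. Fgf22 shares 82 exonic bases with Rnf126 on the opposite strand, and reads there may not be assigned to one gene.

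**Figure D2:**
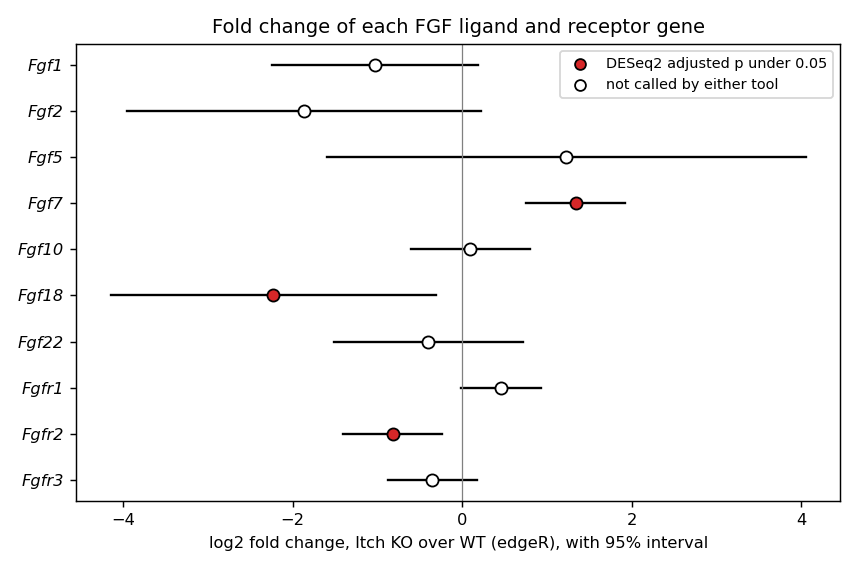
Log2 fold change of Itch KO over WT from edgeR for each gene, with the 95% interval as a line. Filled points mark the 3 genes that DESeq2 called, Fgf7 at 1.34, Fgf18 at -2.23 and Fgfr2 at -0.82, and their intervals do not cross 0.

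Fgf18 was lower in both knockout libraries, and its WT libraries differed widely. The gene (ENSMUSG00000057967, GRCm38 chr11:33117430-33147400, minus strand) collected 306 and 87 counts in WT skin, versus 46 and 41 counts in Itch KO skin. In CPM, WT skin had 20.4 and 5.49 (mean 12.9 ± 10.5, SD, n = 2) and Itch KO skin had 2.90 and 2.61 (mean 2.76 ± 0.21, SD, n = 2). WT replicate 1 was the high library, WT replicate 2 came next, and the groups did not overlap. The log2 fold change was -2.23 (SE 0.71, 95% interval -4.14 to -0.31), or 4.68-fold lower, with adjusted p = 0.184 in edgeR and adjusted p = 0.0269 in DESeq2. Without WT replicate 1 the log2 fold change was -0.99 (edgeR adjusted p = 0.184).

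Fgf18 and Fgf5 have known places in the hair cycle. Their levels in WT skin ran in opposite order, which 2 libraries are too few to establish as a relation. Fgf5 stood at 0.667 and 5.37 CPM in WT skin, versus 4.36 and 9.81 CPM in Itch KO skin. WT replicate 1 was low, with 10 counts, and the knockouts lay on either side of WT replicate 2, so the groups overlapped (log2 fold change 1.23, SE 1.05, adjusted p = 0.511 in edgeR). Without WT replicate 1 the log2 fold change of Fgf5 was 0.40 and without WT replicate 2 it was 3.40. WT replicate 1, the library with the highest Fgf18 and the lowest Fgf5, also had the lowest hair shaft sum, 18.2 CPM, where the other WT library had 1711 CPM and the knockouts had 3308 and 2762 CPM. Of the 14 hair shaft genes, 12 lay above in both knockouts and none was at 0. The bulge list, the stem cells of the resting follicle, had 3 of 9 genes above, 3 below and none at 0, with sums of 3269 and 2362 CPM in WT skin, versus 2893 and 2415 CPM in Itch KO skin. The highest genes of that list, Krt15 and Postn, went opposite ways. Krt15 had 2250 and 1322 CPM in WT skin, versus 582 and 625 CPM in Itch KO skin. Postn had 524 and 582 CPM in WT skin, versus 1768 and 1310 CPM in Itch KO skin. Ratios to the list therefore depend on which genes it holds. Relative to 1000 CPM of the bulge list, Fgf18 had 6.24 and 2.33 CPM in WT skin, versus 1.004 and 1.08 CPM in Itch KO skin. Per 1000 CPM of muscle genes the direction was the opposite, with 0.801 and 1.41 CPM in WT skin, versus 1.48 and 1.55 CPM in Itch KO skin. Relative to 1000 CPM of hair shaft genes, Fgf5 had 36.6 and 3.14 CPM in WT skin, versus 1.32 and 3.55 CPM in Itch KO skin, and the groups overlapped. What part muscle content or the stage of the hair cycle has in these differences was not tested.

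Fgf1 and Fgf2, the ligands without a classical secretion signal, were highest in WT replicate 1. Fgf1 (ENSMUSG00000036585) measured 35.4 and 15.97 CPM in WT skin, versus 14.2 and 11.02 CPM in Itch KO skin. The groups did not overlap, but WT replicate 2 was nearer to the knockouts than to WT replicate 1 (log2 fold change -1.02, SE 0.45, edgeR adjusted p = 0.266, DESeq2 adjusted p = 0.191). Without WT replicate 1 the log2 fold change of Fgf1 was -0.34. Fgf2 was the least abundant of the 10 genes, with 32 and 11 counts in WT skin, versus 8 and 4 counts in Itch KO skin. In CPM these were 2.13 and 0.694 against 0.505 and 0.255. Its groups did not overlap (log2 fold change -1.87, SE 0.78, edgeR adjusted p = 0.248, DESeq2 adjusted p = 0.349), and without WT replicate 1 the log2 fold change was -0.86. The skeletal muscle list, with 15 of 20 genes below in both knockouts and Tnnc2 at 0 in WT replicate 2, summed to 25470 and 3898 CPM in WT skin, versus 1964 and 1690 CPM in Itch KO skin. Per 1000 CPM of muscle genes, Fgf1 had 1.39 and 4.10 CPM in WT skin, versus 7.24 and 6.52 CPM in Itch KO skin, the opposite direction. Fgf2 had 0.0838 and 0.178 CPM on the same scale in WT skin, versus 0.257 and 0.151 CPM in Itch KO skin, and its groups overlapped. What part muscle in the biopsies has in the Fgf1 and Fgf2 levels was not tested. Fgf2 shares 640 exonic bases, 9.44% of its exon length, with Nudt6 on the opposite strand. The strand setting of the counting is not given, so its counts are uncertain.

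**Figure D3:**
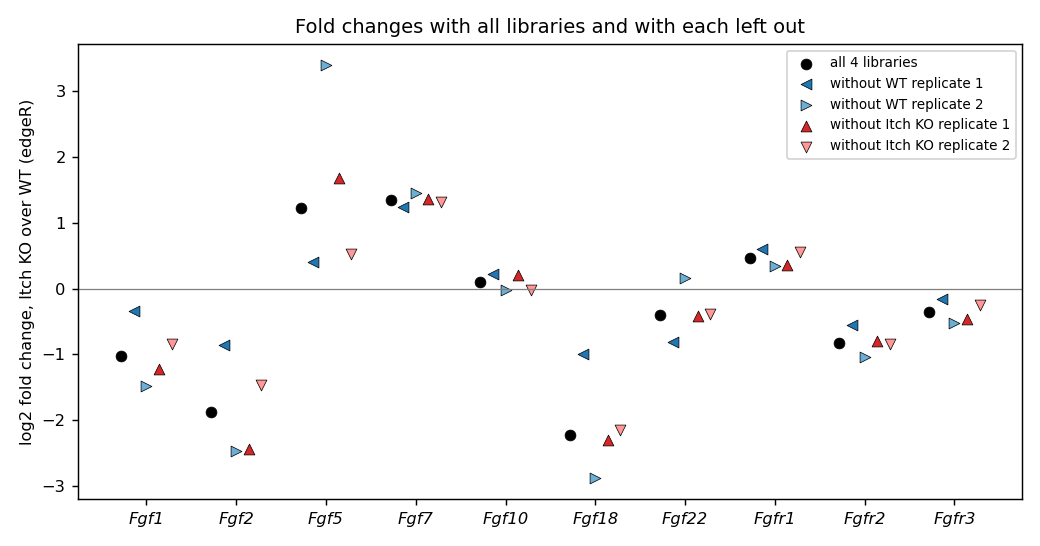
Log2 fold change of Itch KO over WT from edgeR with all 4 libraries and with each library left out. Fgf7 stays between 1.24 and 1.45, whereas Fgf18 moves between -2.88 and -0.99 and Fgf5 between 0.40 and 3.40, the ends being the fits without one or the other WT library.

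Among the receptors, Fgfr2 was lower and Fgfr1 higher in both knockout libraries. Fgfr2, the receptor through which Fgf7 and Fgf10 reach keratinocytes, measured 240 and 169.7 CPM in WT skin (mean 205 ± 49.6, SD, n = 2), versus 114 and 118 CPM in Itch KO skin (mean 116 ± 2.96, SD, n = 2). The knockouts were close together and both below the lower WT library. The log2 fold change was -0.82 (SE 0.22, 95% interval -1.41 to -0.23), or 1.77-fold lower, with adjusted p = 0.151 in edgeR and adjusted p = 0.0244 in DESeq2. Without WT replicate 1 it was -0.55, and without WT replicate 2 it was -1.05. In the annotation used here Fgfr2 (ENSMUSG00000030849, GRCm38 chr7:130162451-133123350, minus strand) shares 314 exonic bases with Ctbp2 on the same strand.

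Fgfr1, the main receptor of mesenchymal cells, stood at 152 and 127 CPM in WT skin, versus 205 and 179.9 CPM in Itch KO skin. The groups did not overlap (log2 fold change 0.46, SE 0.18, 95% interval -0.01 to 0.93, edgeR adjusted p = 0.224, DESeq2 adjusted p = 0.195). Fgfr3, which restrains growth of cartilage, stood at 218 and 169 CPM in WT skin, versus 162 and 142 CPM in Itch KO skin. Its groups did not overlap either, but the gap between them was smaller than the gap between the WT libraries (log2 fold change -0.35, SE 0.20, 95% interval -0.88 to 0.17, edgeR adjusted p = 0.341).

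Per 1000 CPM of the full marker lists of cell types known to carry them, all 3 receptors were lower in both knockout libraries. The basal keratinocyte list had 2 of 10 genes above, 3 below and none at 0, and its sum was similar in all libraries, 8561 and 7188 CPM in WT skin, versus 7967 and 8356 CPM in Itch KO skin. Per 1000 CPM of it, Fgfr2 had 28.0 and 23.6 CPM in WT skin, versus 14.3 and 14.1 CPM in Itch KO skin. Fgfr3 had 25.5 and 23.5 CPM against 20.3 and 17.0 CPM on the same scale. Krt5 and Krt14, keratins of the basal layer, made up most of that sum, with Krt14 at 1617 and 1888 CPM in WT skin, versus 2979 and 3475 CPM in Itch KO skin. Col17a1, a collagen that anchors basal cells and was chosen after its values were seen, went the other way, with 1797 and 956 CPM against 684 and 598 CPM. The Fgfr2 and Fgfr3 ratios therefore depend on which genes this list holds, and ratios without its keratins were not computed. What part basal keratinocyte content has in the Fgfr2 and Fgfr3 levels was not tested. Relative to 1000 CPM of the fibroblast list, Fgfr1 had 57.0 and 32.6 CPM in WT skin, versus 13.04 and 12.9 CPM in Itch KO skin, against its direction in CPM. Without the 3 collagens these were 87.3 and 79.4 CPM against 44.2 and 49.9 CPM, in the same direction.

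Levels of different genes were compared as CPM per kb of exon length, since longer transcripts gather more reads. Ordered by their WT means, the genes ran from Fgfr3 (27.05), Fgfr2 (19.8), Fgfr1 (14.1) and Fgf18 (10.9) to Fgf1 (4.70), Fgf22 (4.06), Fgf7 (3.09), Fgf10 (2.39), Fgf5 (1.21) and Fgf2 (0.209 CPM per kb). In that order the library values of Fgfr1 and Fgf18, Fgf18 and Fgf1, Fgf1 and Fgf22, Fgf22 and Fgf7, and Fgf5 and Fgf2 overlapped, so these neighbours were not separated by their spread. In the knockouts the order was Fgfr3 (21.2), Fgfr1 (19.5), Fgfr2 (11.2), Fgf7 (7.83), Fgf22 (3.08), Fgf5 (2.83), Fgf10 (2.55), Fgf18 (2.32), Fgf1 (2.31) and Fgf2 (0.0560 CPM per kb). There Fgf7 stood above every other ligand gene in both libraries, whereas the values of Fgfr3 and Fgfr1 overlapped, as did those of each pair of neighbours from Fgf22 down to Fgf1. Exon lengths came from all annotated transcripts of each gene, so these levels depend on which transcripts skin uses.

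The make-up of the ligand genes differed between the groups more than their total did. Summed over the 7 ligand genes, the level was 32.5 and 20.7 CPM per kb in WT and 20.01 and 22.0 CPM per kb in the knockouts, and the groups overlapped. Fgf7 made up 8.85% and 16.0% of that sum in WT skin, versus 38.5% and 36.3% in Itch KO skin. Fgf18 made up 52.9% and 22.4% in WT skin and 12.2% and 10.02% in Itch KO skin. Fgf7 was the largest ligand share in both knockout libraries, while the largest was Fgf18 in WT replicate 1 and Fgf22, with 26.0%, in WT replicate 2. Among the receptor genes, Fgfr1 made up 22.3% and 24.3% of the summed level per kb in WT skin, versus 38.1% and 36.9% in Itch KO skin, and Fgfr2 made up 33.6% and 31.05% in WT skin and 20.3% and 23.1% in Itch KO skin. The ratio of Fgfr2 to Fgfr1 per kb was 1.505 and 1.28 in WT skin and 0.532 and 0.627 in Itch KO skin, so Fgfr1 was the lower of the pair in WT and the higher in the knockouts. These shares are descriptions and were not tested.

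**Figure D4:**
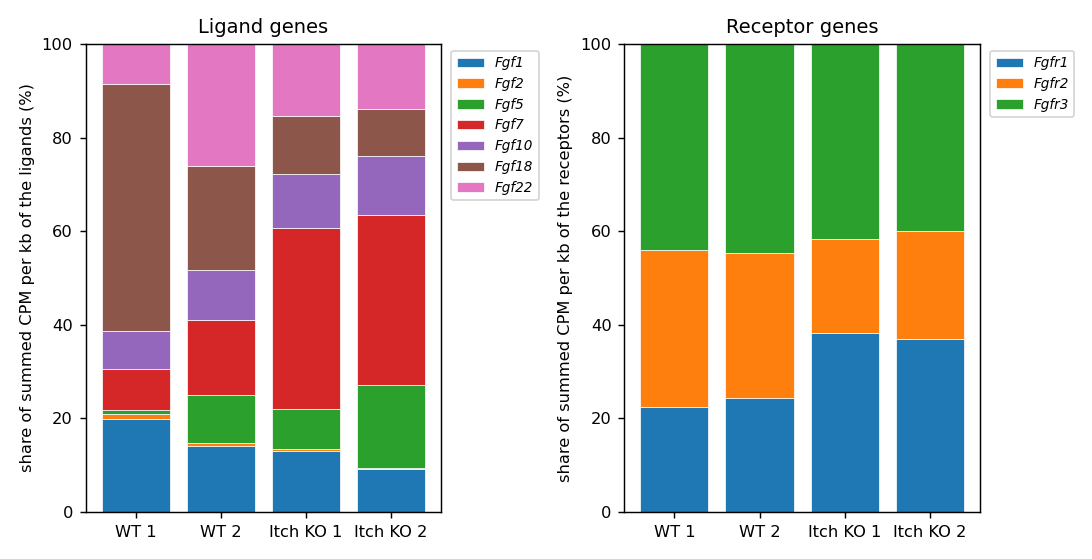
Share of each ligand gene (left) and each receptor gene (right) in the summed CPM per kb of its class, 1 bar per library, in percent. The Fgf7 segment is 8.85% and 16.0% in WT skin and 38.5% and 36.3% in Itch KO skin, and the Fgfr1 segment grows from 22.3% and 24.3% to 38.1% and 36.9%.

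The other genes of the pathway were read from lists of feedback inhibitors and target genes, heparan sulfate carriers, intracellular relay proteins and the remaining FGF family. In edgeR, 0 genes of these lists passed over all genes, with 15 below 0.05 before adjustment, while DESeq2 called 7 higher and 5 lower. Over all tested genes, 31.2% lay above and 30.0% below in both knockouts, 12.0% and 10.9% were higher and lower before adjustment, and DESeq2 called 7.99% and 6.28%. Of 16 feedback and target genes, 8 lay above and 2 below in both knockouts, and before adjustment 1 gene passed in each direction (median log2 fold change 0.45). Spred2, an inhibitor of the Ras pathway, stood at 57.9 and 44.7 CPM in WT skin, versus 28.9 and 30.2 CPM in Itch KO skin (log2 fold change -0.79, SE 0.20, edgeR adjusted p = 0.143). Etv5, a transcription factor induced by FGF signalling, stood at 11.07 and 13.3 CPM against 20.02 and 19.6 CPM (log2 fold change 0.70, SE 0.23, edgeR adjusted p = 0.188). Spred1 stood at 59.9 and 83.3 CPM against 99.3 and 107 CPM, and Etv1 had 27 and 12 counts against 48 and 49. Dusp6, a phosphatase of ERK and a common readout of FGF signalling, was chosen after its values were seen. Its level was 24.7 and 74.5 CPM in WT skin, versus 95.5 and 141 CPM in Itch KO skin (log2 fold change 1.25, SE 0.59, edgeR adjusted p = 0.287). Etv4 and Spry1, also named after their values were seen, were among the 6 genes of this list whose groups overlapped. Etv4 had 8.07 and 54.9 CPM in WT skin, versus 44.2 and 54.6 CPM in Itch KO skin. Spry1 had 83.9 and 56.6 CPM in WT skin, versus 50.15 and 60.5 CPM in Itch KO skin.

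Of 20 genes for heparan sulfate proteins, their modifying enzymes and FGF carriers, 11 lay above and 3 below in both knockouts. Over all tested genes these shares were 31.2% and 30.0%. Before adjustment 5 passed as higher and 2 as lower, against 12.0% and 10.9% of all tested genes. DESeq2 called 5 higher and 2 lower, against 7.99% and 6.28% of the genes with an adjusted p. The median log2 fold change of the list was 0.34. Sdc2, a syndecan of mesenchymal cells, stood at 37.9 and 35.0 CPM in WT skin, versus 81.03 and 66.8 CPM in Itch KO skin (log2 fold change 1.02, SE 0.18, edgeR adjusted p = 0.0898). Sdc3 stood at 35.0 and 44.1 CPM against 99.1 and 67.6 CPM. The glypican gene Gpc3, which lies on the X chromosome, stood at 31.9 and 35.7 CPM against 57.8 and 78.9 CPM. Hspg2, which encodes the basement membrane proteoglycan perlecan, stood at 131 and 114 CPM against 217 and 183 CPM. All of these 4 genes had groups that did not overlap. Sums of the fibroblast list, given above, were also higher in the knockouts. The macrophage list, with 12 of 12 genes above, summed to 344 and 482 CPM in WT skin, versus 3319 and 2699 CPM in Itch KO skin. The neutrophil list, with 8 of 8 genes above and Ly6g at 0 in both WT libraries, summed to 38.0 and 59.5 CPM against 2262 and 1047 CPM. The part of these cell types in the heparan sulfate gene levels was not tested.

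The genes of the intracellular relay differed in both directions. Of its 19 genes, 5 lay above and 6 below in both knockouts, against 31.2% and 30.0% of all tested genes. Before adjustment 2 passed in each direction, against 12.0% higher and 10.9% lower, and the median log2 fold change was -0.13. Map2k1, the kinase MEK1, stood at 76.1 and 67.9 CPM in WT skin, versus 103 and 114 CPM in Itch KO skin (log2 fold change 0.59, SE 0.16, edgeR adjusted p = 0.152). Grb2, an adaptor that links receptors to Ras, stood at 84.3 and 75.6 CPM against 104.8 and 110.9 CPM. Frs2, the docking protein that FGF receptors phosphorylate, stood at 72.9 and 61.4 CPM against 47.8 and 36.8 CPM. Cbl, a ubiquitin ligase that takes activated receptors out of service, stood at 30.0 and 15.9 CPM against 9.79 and 6.05 CPM (log2 fold change -1.53, SE 0.45, edgeR adjusted p = 0.167).

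**Figure D5:**
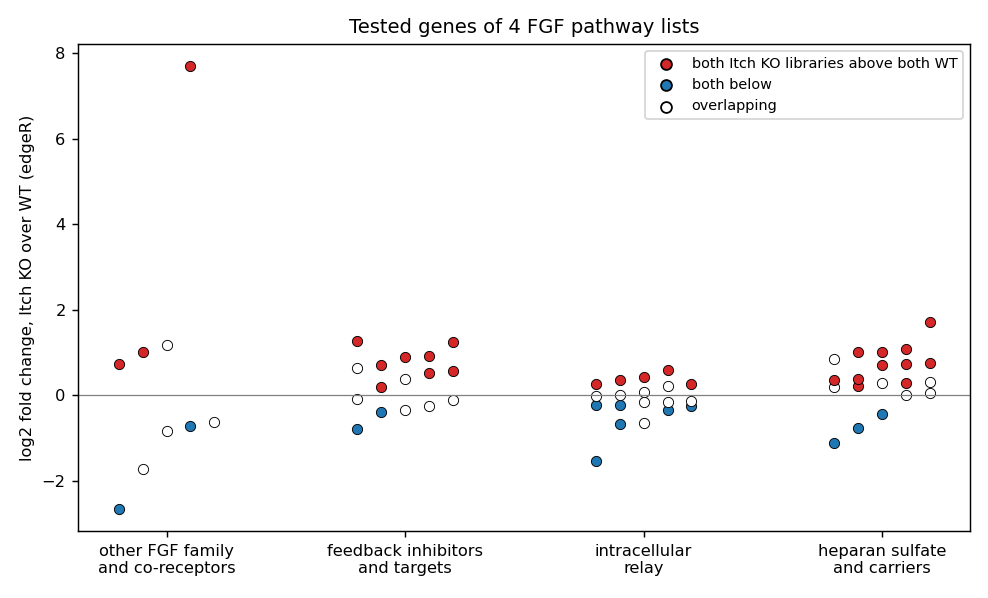
Log2 fold change of Itch KO over WT from edgeR for the tested genes of 4 pathway lists, with 1 point per gene and no order along the horizontal axis within a list. Points for heparan sulfate and carrier genes lie mostly above 0, with 11 of 20 genes above in both knockouts, and the highest point of all is Fgf23 at 7.69, with 1.26 CPM in knockout replicate 1 and 28.9 CPM in knockout replicate 2.

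Of 19 further genes of the FGF family, their receptors and co-receptors, 9 could be tested, and 0 passed in edgeR. Before adjustment 1 passed in each direction, against 12.0% higher and 10.9% lower of all tested genes, and DESeq2 called both. The higher one, Fgf23, passed the filter on low counts only through the knockout libraries, so its direction was set by the filter. The lower one was Fgf13, an FGF-like protein that stays inside the cell and binds sodium channels. Fgf13 had 38.9 and 13.3 CPM in WT skin, versus 4.17 and 4.08 CPM in Itch KO skin (log2 fold change -2.66, SE 0.60, edgeR adjusted p = 0.121, DESeq2 adjusted p = 0.000371), and it lies on the X chromosome. The related Fgf11 stood at 16.1 and 9.53 CPM against 7.07 and 9.56 CPM. Fgfrl1, a receptor-like protein without a kinase, stood at 64.3 and 29.5 CPM against 28.6 and 28.9 CPM. For all 3 genes WT replicate 1 was the highest library.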

How the data were processed

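The deposited values were read counts per Ensembl gene, 1 file per library. The build was mm10 (GRCm38), and the tools named are TopHat2, HTSeq 0.6.1, SAMtools 0.1.19 and CASAVA 1.8.2, per the submitters' processing notes. Annotation release, strand setting and filters on reads were not given in the sources used here. Each file held 39179 genes, of which 37693 were in GENCODE vM21, and 5 counter lines, which were not used for scaling or testing. Of counted reads, 5.68% to 7.45% had no feature and 4.48% to 4.70% were ambiguous. Symbols, coordinates and exon lengths came from GENCODE vM21, and promoter windows from RefSeq on GRCm38.p6.

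The comparison used edgeR 4.0.16 under R 4.3.3 (filterByExpr with a minimum count of 10, TMM, quasi-likelihood F test with legacy=TRUE and robust=TRUE, two-sided, Benjamini-Hochberg over 16651 genes, threshold 0.05), tested on simulated counts. SE was the absolute log2 fold change over the square root of F. DESeq2 1.42.0 and limma 3.58.1 (voom), other scalings, no filter, a replicate block, fits without X and Y or muscle genes, and each library left out were alternatives. Named genes were the 10 members, Itch, the 4 smallest p-values per pathway list, and further FGF genes with a mean of 1 CPM or more. The highest genes of a marker list were named only beside a member's result. Of the listed symbols, 3 had no match. Outside these rules, Xist, Dusp6, Etv4, Spry1, Kl, Fgf4, Fgf8, Fgf17, Fgf21, Tnnc2, Ly6g, Col1a1 and Col17a1 were named after their values were seen. Levels over the fibroblast list without 3 collagens, and Fgf23 with each library left out, were added after seeing the data. The name of 1 marker gene is not reported here. The members and lists were chosen with earlier results of these data known.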

Additional observations from a re-analysis of the deposited data

How the results depend on the processing

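Over all genes, edgeR called 1 gene, 488 without the low-count filter, 0 with the replicate block and 0 without X and Y genes. DESeq2 called 2329 and limma-voom 0, where 3566 genes were below 0.05 before adjustment. Leaving out 1 library gave 0 to 5320 calls, the latter without WT replicate 2. Of the 10 FGF genes, 0 were called by edgeR (3 at an unadjusted p under 0.05), 3 by DESeq2, and 0 to 6 with 1 library left out, and of the pathway lists 0 (15 at an unadjusted p under 0.05), 12 by DESeq2, and 0 to 21. The 6 calls came without WT replicate 2, and 1 call, Fgf7, came without WT replicate 1. Both fits have a single WT library, which is assumed to share the spread of the knockouts. Fgf10 ranged from -0.0198 to 0.22 and Fgf22 from -0.81 to 0.16 on the log2 scale with 1 library left out, so both changed sign, and the cause was not tested. As log2 of knockout mean over WT mean, Fgf7 per fibroblast CPM went from -0.86 to 0.0588 without 3 collagens, an alternative chosen after seeing the data. Over 120 refits of single FGF genes, 3 changed sign and the others kept their direction.

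The replicate numbers of the labels do not state a pairing. Deviations of same-numbered libraries from their group means had a correlation of 0.19 across genes. With the replicate block, edgeR called 0 of the 10 FGF genes, with 6 at an unadjusted p under 0.05 where 24.0% of all tested genes were, and adjusted p for Fgf7 was 0.111.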

Other observations

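Fgf23, a hormone of phosphate balance made by bone cells, was nearly absent from WT skin and present in both knockout libraries at unequal levels. It had 1 count in each WT library, 20 counts in knockout replicate 1 and 453 counts in knockout replicate 2, or 0.0667, 0.0631, 1.26 and 28.9 CPM. edgeR gave adjusted p = 0.159 and DESeq2 gave adjusted p = 4.50e-05, and the gene passed the filter on low counts only through the knockout libraries. The fitted log2 fold change was 7.69 with all libraries, 8.62 without knockout replicate 1 (edgeR adjusted p = 0.262) and 4.13 without knockout replicate 2 (edgeR adjusted p = 0.393). With 1 count in each WT library these fits depend on the prior count. Kl, the co-receptor of Fgf23, had 1 count in each WT library and 0 in the knockouts. Fgfr4 had 1.93 and 1.199 CPM in WT skin, versus 2.02 and 4.33 CPM in Itch KO skin (edgeR adjusted p = 0.341).

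Klb, the co-receptor of the metabolic hormone Fgf21, varied within both groups. Its level was 22.9 and 4.99 CPM in WT skin, versus 6.70 and 1.72 CPM in Itch KO skin (edgeR adjusted p = 0.366), while Fgf21 itself had at most 15 counts. Fgf9 had 2.53 and 1.07 CPM in WT skin, versus 0.884 and 1.15 CPM in Itch KO skin, and Fgf14 at 0.933 and 0.694 against 1.45 and 1.27 CPM. Fgf4 had 8 counts in WT replicate 1 and 0 in the other 3 libraries. Fgf8 and Fgf17 had 0 counts in all 4 libraries. The 10 family genes that could not be tested had at most 13 counts in any library.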
